A study of Caenorhabditis elegans with 45 samples.

Results

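The interaction of the smg-2 and egl-9 mutations was measured by RNA sequencing of whole nematodes, Caenorhabditis elegans hermaphrodites at the young adult stage. It is the effect of the egl-9 mutation in a smg-2 background minus its effect with nonsense-mediated decay (NMD) intact, each taken as a log2 difference of mRNA levels. The 20 libraries of 4 genotypes that enter it, of 45 libraries of 9 genotypes in the series, were taken by their titles, 5 per genotype. The genotypes were the double mutant smg-2(r863); egl-9(sa307), strain MT26461, the single mutant smg-2(r863), strain MT27410, the single mutant egl-9(sa307), strain JT307, and the wild type N2. The first is called the double mutant, and smg-2 and egl-9 alone name the single mutants. Each sample held 300 to 500 L4 larvae picked onto agar plates with OP50 bacteria and collected 6 h later, at 20 °C and 20% oxygen. Each genotype was 1 strain, so a difference between genotypes and one between strains cannot be told apart, and the p-values measure the spread between the 5 samples of a strain.

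EGL-9 hydroxylates prolines of HIF-1, a transcription factor that is then destroyed as long as oxygen is present, so HIF-1 accumulates in egl-9 mutants in normal air and switches on its target genes. SMG-2 is the RNA helicase at the centre of NMD, the pathway that degrades mRNAs with premature stop codons and some normal transcripts. In worms, HIF-1 targets are known for hydrogen sulfide detoxification, cysteine metabolism and changes in feeding and egg laying. A positive interaction means that the egl-9 mutation raised a gene more, or lowered it less, in the smg-2 background than with NMD intact, and a negative one means the reverse.

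The files held counts per gene, with 11812796 to 33169699 counts per library (median 16347308). Levels are given as CPM, counts scaled to a common library size with TMM (a correction for library composition), and differences as log2 differences of the fitted edgeR model. Replicate pairs of a genotype differed by more than sampling noise in all 40 pairs, with 8.01 to 65.2 times the chi-square per degree of freedom that counting error alone gives, and none was merged. First, the mutated genes: RNA of egl-9 was at 113, 117, 112, 116 and 122 CPM in the double mutant and 23.4, 23.7, 13.7, 19.7 and 21.1 CPM in smg-2. In the egl-9 single mutant it had 102, 100.3, 107, 95.1 and 115 CPM, and in N2 it had 20.7, 25.4, 28.3, 22.5 and 25.3 CPM. The mutant allele's RNA was thus several times higher in every egl-9 library than in every library with wild-type egl-9, with log2 differences of 2.52 in the smg-2 background and 2.09 with NMD intact. The smg-2 transcript overlapped among the 4 genotypes (72.2 to 108 CPM in the double mutant, 74.5 to 96.6 CPM in smg-2, 72.5 to 110.1 CPM in egl-9 and 74 to 101 CPM in N2), so its level does not check the smg-2 label. Pseudogenes check the loss of NMD in the smg-2 single mutant, though not which NMD gene was mutated. Of 680 pseudogenes tested, 543 were higher in smg-2 than in N2 and 3 lower (adjusted p under 0.05), against 24.3% higher and 19.6% lower over all genes tested.

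Of 16053 genes tested, 585 had an interaction at an adjusted p under 0.05, which is 3.64% (edgeR's quasi-likelihood test with Benjamini-Hochberg adjustment). Positive interactions numbered 271 (1.69%), of which 131 were at least 2-fold (0.816%), and negative ones 314 (1.96%), of which 253 were at least 2-fold (1.58%). With the size factors of DESeq2 in place of TMM, 607 genes were called, 207 positive and 400 negative, so the split between the directions depends on the scaling. The median over all genes was 0.09 and moved to 0.02 under that scaling. The egl-9 mutation itself changed 6576 genes (41%) in the smg-2 background, 19% of all genes higher and 21.9% lower. With NMD intact it changed 5416 genes (33.7%), 11.9% higher and 21.8% lower. The number of interactions rests in part on single libraries: it was 324 without smg-2 replicate C, 375 without egl-9 replicate B and 388 without replicate D of the double mutant, and the negative count was 140, 159 and 178 in these 3 cases and 195 without replicate E of the double mutant. The positive count stayed between 184 and 280.

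The interactions were sorted by the effect of the egl-9 mutation on each side. Among the 314 negative genes, 165 were raised by the egl-9 mutation with NMD intact and did not pass the test in the smg-2 background, 37 were raised on both sides but less in smg-2, 84 were lowered in the smg-2 background and did not pass with NMD intact, and 21 were raised with NMD intact and lowered in smg-2. Among the 271 positive genes, 77 were lowered with NMD intact and did not pass in smg-2, 60 were lowered on both sides but less in smg-2, 98 were raised in smg-2 and did not pass with NMD intact, and 15 changed in opposite directions. In 21 positive and 7 negative genes the effect had the same sign on both sides and was larger in smg-2. On the linear scale of CPM, 259 of the 271 positive and 306 of the 314 negative differences kept their sign.

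**Figure D1:**
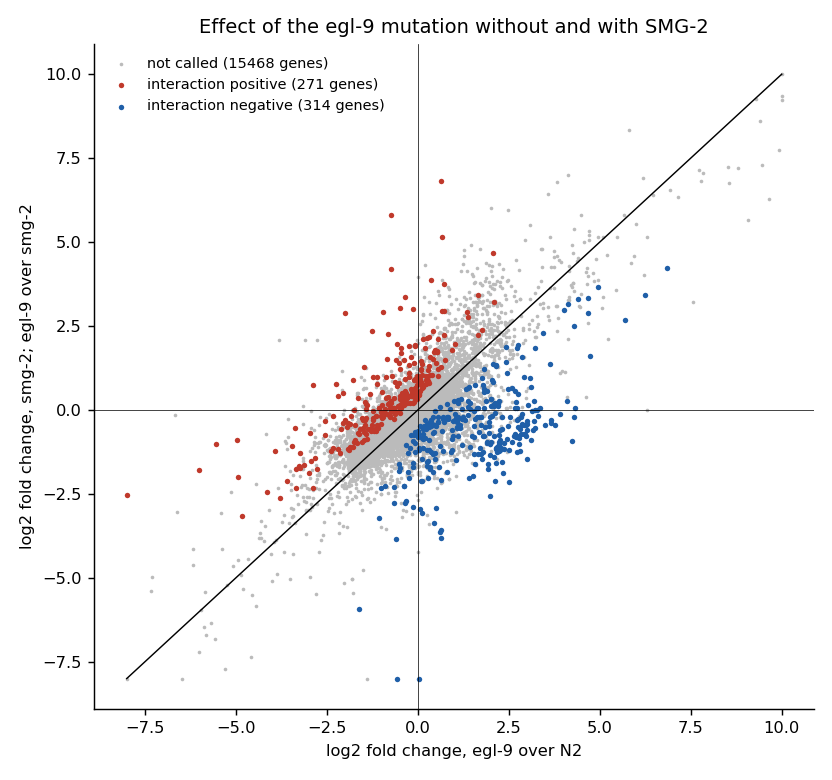
Log2 effect of the egl-9 mutation on each gene tested, with NMD intact (horizontal) and in the smg-2 background (vertical), values beyond the axis range drawn at its edge. Genes with a negative interaction lie below the diagonal of equal effects, most of them right of 0 and near or below 0 on the vertical axis, and genes with a positive interaction lie above it.

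The listed HIF-1 targets were induced with and without SMG-2. All 8 listed targets were higher in the double mutant than in smg-2, and the same held for egl-9 set against N2. The median effect was 5.10 log2 units in the smg-2 background and 4.90 with NMD intact. The median of the interactions of the single genes was -0.27, with 4 above 0 and 4 below, against 0.09 over all genes. Of the 8, 2 had a called negative interaction. Over all genes tested, 19% were higher in the double mutant than in smg-2, 11.9% in egl-9 than in N2, and 1.96% had a negative interaction. Transcripts of rhy-1, a membrane protein that restrains HIF-1 (chromosome II 9161379 to 9163448 in the WBcel235 assembly), had 540, 674, 627, 609 and 586 CPM in the double mutant and 19.5, 23.4, 9.86, 17.1 and 21.7 CPM in smg-2. In egl-9, rhy-1 had 635, 544, 604, 735 and 596 CPM, and in N2 it had 21.6, 28.2, 22.9, 21.2 and 24.7 CPM. The rhy-1 libraries with the egl-9 mutation overlapped, and the log2 effect was 5.06 in the smg-2 background and 4.72 with NMD intact, an interaction of 0.34 (SE 0.29, adjusted p = 0.633). For cysl-2, a cyanoalanine synthase, the interaction was 0.14 (SE 0.49, adjusted p = 0.923), and for nhr-57, a nuclear receptor that serves as a HIF-1 reporter, 0.05 (SE 0.29, adjusted p = 0.954). The sulfide quinone oxidoreductase gene sqrd-1 rose to 249 ± 27.3 CPM in the double mutant, against 1.86 ± 0.732 CPM in smg-2, and to 589.7 ± 59.9 CPM in egl-9, against 2.79 ± 0.248 CPM in N2 (SD, n = 5 each, as for all values given with ±). Its interaction was -0.59 (SE 0.75, adjusted p = 0.761), and that of the glutathione S-transferase gene gst-19 was -0.79 (SE 1.21, adjusted p = 0.806). The interaction of F22B5.4 was 0.41 (SE 0.27, adjusted p = 0.519). An adjusted p above 0.05 does not show that these responses are equal.

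The 2 targets that differed were cyp-36A1 and phy-2. The cytochrome P450 gene cyp-36A1, which acts downstream of HIF-1 in the control of gene expression and behaviour (chromosome I 8341682 to 8346023), had 27.4, 28.8, 29.4, 29.8 and 27.9 CPM in the double mutant and 9.95, 11.4, 7.69, 10.4 and 8.97 CPM in smg-2. In egl-9, cyp-36A1 had 76.7, 65.8, 74.8, 62.8 and 56 CPM, and in N2 it had 9.27, 7.47, 9.09, 9.95 and 10.5 CPM. Both egl-9 groups lay above both groups with wild-type egl-9, and the double mutant lay below all egl-9 libraries, while smg-2 and N2 overlapped. The log2 effect was 1.57 in the smg-2 background and 2.86 with NMD intact, an interaction of -1.29 (SE 0.16, adjusted p = 4.95e-07). The gene phy-2 encodes a catalytic subunit of collagen prolyl 4-hydroxylase (chromosome IV 12211097 to 12215987). It had 143 to 186 CPM in the double mutant and 30.8 to 36.3 CPM in smg-2. In egl-9 it had 177 to 289.7 CPM, and in N2 16.8 to 22.9 CPM. Here smg-2 lay above N2 as well, and the interaction was -1.17 (SE 0.18, adjusted p = 3.72e-05).

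**Figure D2:**
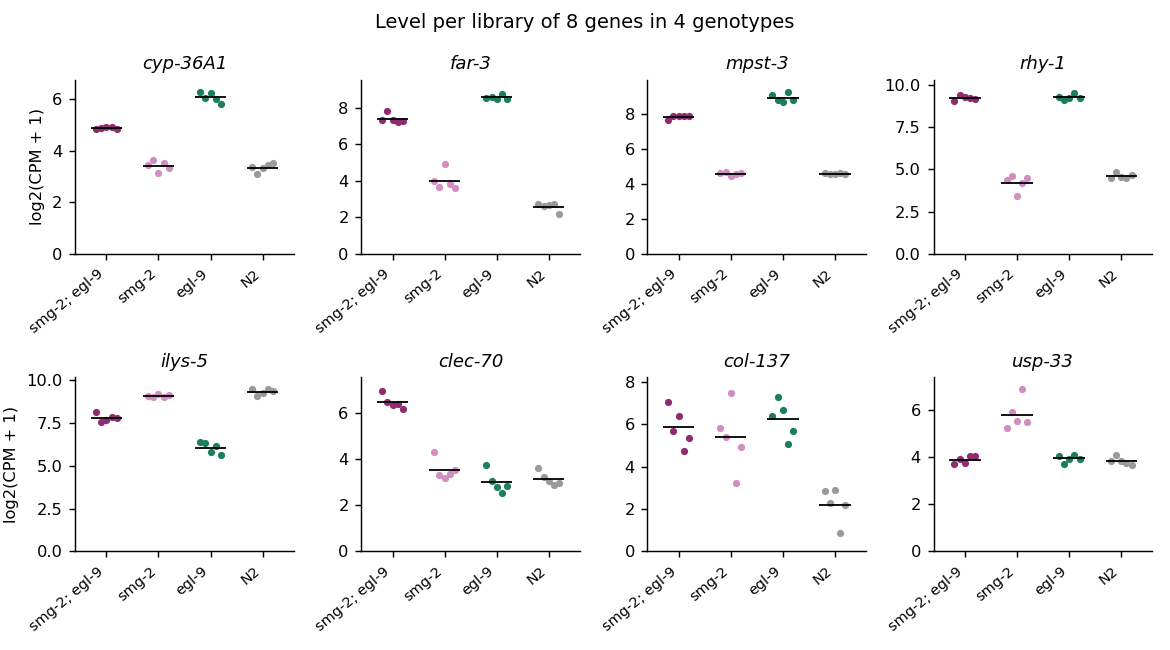
Level per library on the log2(CPM + 1) scale for 8 genes, with the mean of each genotype as a line, in the order double mutant, smg-2, egl-9 and N2. The genes cyp-36A1, far-3 and mpst-3 lie lower in the double mutant than in egl-9, rhy-1 lies at a like level in both, ilys-5 and clec-70 lie higher in the double mutant than in egl-9, col-137 is low only in N2 of these 4 genotypes, and usp-33 is high only in smg-2.

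Some other genes that the egl-9 mutation raised also had smaller responses in the smg-2 background. Of 19 genes of hydrogen sulfide and cysteine metabolism, 3 had a negative (15.8%) and 0 a positive interaction (median -0.13, against 0.09 over all genes). Over all genes tested, 1.96% were negative and 1.69% positive. The gene mpst-3, a mercaptopyruvate sulfurtransferase homologue (chromosome V 14895647 to 14899019), had 199, 234, 236, 232 and 231 CPM in the double mutant and 23.7, 24.9, 20.5, 23 and 23.7 CPM in smg-2. In egl-9, mpst-3 had 537, 438, 419, 605 and 444 CPM, and in N2 it had 23.7, 23, 23, 23.3 and 22.3 CPM. The smg-2 and N2 libraries overlapped, and the groups with the egl-9 mutation did not, which gave an interaction of -1.11 (SE 0.15, adjusted p = 3.84e-06). The same order was found for cysl-1, which binds and inhibits EGL-9, with 91.7 ± 11.1 CPM in the double mutant and 36.6 ± 3.82 CPM in smg-2, against 163 ± 34.6 CPM in egl-9 and 36.4 ± 4.18 CPM in N2. Its interaction was -0.84 (SE 0.19, adjusted p = 0.00713). For cbs-1, cystathionine beta-synthase, the interaction was -0.71 (SE 0.19, adjusted p = 0.0216), but smg-2 loss raised this gene on both sides, the difference on the linear scale had the other sign (12.8 CPM), and the call was lost without replicate E of the double mutant (adjusted p = 0.0506).

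The gene far-3, chosen after its values were seen, encodes a fatty acid and retinol binding protein (chromosome V 12996787 to 12997522). It had 163, 229, 163, 152 and 155 CPM in the double mutant and 14.7, 11.6, 29.5, 13 and 11.2 CPM in smg-2. In egl-9, far-3 had 377, 390, 354, 434 and 360.1 CPM, and in N2 it had 5.65, 5.04, 5.47, 5.52 and 3.47 CPM. It was higher in every library with the egl-9 mutation than in every library without it, lower in the double mutant than in egl-9 and higher in smg-2 than in N2, with an interaction of -2.83 (SE 0.40, adjusted p = 9.52e-06). The interaction of the uncharacterised gene C36C5.12, one of the 6 negative genes with the smallest p, was -2.27 (SE 0.23, adjusted p = 3.41e-09), on levels of 14.4 ± 0.956 CPM in the double mutant and 5.53 ± 0.836 CPM in smg-2, against 22.4 ± 2.83 CPM in egl-9 and 1.79 ± 0.206 CPM in N2. The gene scb-1, linked to bleomycin sensitivity in worms, was also among those 6 genes, and had 14.2 to 15.8 CPM in the double mutant and 12.7 to 14.2 CPM in smg-2, against 15.8 to 20.6 CPM in egl-9 and 3 to 4.86 CPM in N2. N2 alone of the 4 genotypes had low levels, the egl-9 effect was 0.22 in the smg-2 background and 2.20 with NMD intact, and these gave an interaction of -1.98 (SE 0.16, adjusted p = 6.76e-12). Among the 188 nuclear hormone receptors tested, 6 had a negative and 3 a positive interaction, 3.19% and 1.6%, near the 1.96% and 1.69% of all genes. Their median was 0.15, with 122 of the receptors above 0. The egl-9 mutation raised nhr-62 by 1.85 log2 units in smg-2 and by 2.73 with NMD intact, and nhr-11 by 1.43 and 2.42, while nhr-4 was raised more in smg-2, by 1.78 against 0.94. The fourth receptor with a small p, nhr-243, fell by 0.98 log2 units in the smg-2 background and had an effect of -0.09 with NMD intact.

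Some genes of digestion and defence that the egl-9 mutation lowers were lowered less without SMG-2, but not whole groups. Of 13 lysozyme genes, 1 was positive, with 5 interactions above 0 and 8 below (median -0.08). The irg and dod defence genes had 0 calls among 17, and the epidermal antimicrobial peptides 1 negative and 0 positive among 35 (median -0.63). The invertebrate lysozyme gene ilys-5 (chromosome X 6533490 to 6536840) had the smallest p of the positive genes, with 280.1, 188, 205, 227 and 219 CPM in the double mutant and 540.4, 507, 586, 503 and 563 CPM in smg-2. In egl-9, ilys-5 had 82.8, 78.2, 55.5, 70.3 and 48.7 CPM, and in N2 it had 697, 530.5, 603, 709 and 648 CPM. The smg-2 and N2 libraries overlapped, whereas all double mutant libraries lay above all egl-9 libraries, and the interaction was 1.98 (SE 0.17, adjusted p = 6.52e-11). The aspartyl protease gene asp-8 (chromosome V 3024549 to 3027931) had 2.09, 2.28, 2.57, 2.39 and 2.32 CPM in the double mutant and 12.4, 10, 8.2, 8.3 and 7.95 CPM in smg-2. In egl-9, asp-8 had 1.07, 0.747, 1.02, 1.09 and 1.06 CPM, and in N2 it had 30.9, 28.1, 40.8, 28.9 and 26.4 CPM. The interaction of asp-8 was 2.94 (SE 0.27, adjusted p = 3.19e-10), with smg-2 itself lower than N2. Of 18 aspartyl and cysteine protease genes, 4 were positive (22.2%) and 1 negative (5.56%), against 1.69% and 1.96% of all genes (median 0.23). The cathepsin B-like gene cpr-4 had a log2 effect of -0.06 in smg-2, against -1.02 with NMD intact (interaction 0.96, SE 0.21, adjusted p = 0.00507), and asp-14 had an interaction of 0.77 (SE 0.20, adjusted p = 0.0171), which was lost without N2 replicate C (adjusted p = 0.0649). The negative member asp-5 was raised on both sides, by 1.38 in smg-2 and 2.06 with NMD intact, a difference that was lost without smg-2 replicate C (adjusted p = 0.0764). The positive count of this list was 2 without N2 replicate C.

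The propionate breakdown genes gave 4 positive (44.4%, against 1.69% of all genes) and 0 negative interactions among 9 tested (median 0.38). All 4 were lowered by the egl-9 mutation on both sides. They belong to the beta-oxidation-like branch that degrades propionate when vitamin B12 is scarce. The acyl-CoA dehydrogenase gene acdh-1, the first enzyme of this branch (chromosome I 6497436 to 6499560), had 818, 699.9, 695, 909 and 954 CPM in the double mutant and 1506, 1544, 1391, 1836 and 1623 CPM in smg-2. In egl-9, acdh-1 had 675, 532, 471, 675 and 564 CPM, and in N2 it had 1769, 1889, 1890, 2206 and 2124 CPM. The egl-9 libraries were the lowest and all lay below the double mutant, and the interaction was 0.81 (SE 0.16, adjusted p = 0.00116). For hphd-1, the hydroxyacid-oxoacid transhydrogenase, it was 0.71 (SE 0.13, adjusted p = 4.36e-04), and for hach-1, the hydroxyacyl-CoA hydrolase, 0.68 (SE 0.13, adjusted p = 0.00129). The interaction of alh-8, the semialdehyde dehydrogenase, was 0.38 (SE 0.10, adjusted p = 0.0284) and was lost in 5 of the 20 fits that left out 1 library (replicate A of the double mutant, smg-2 replicate C, egl-9 replicate C and N2 replicates C and E). The 17 lipase genes gave 3 positive calls (17.6%) and 1 negative (5.88%), against 1.69% and 1.96% of all genes, with a median of -0.37. Among them, lipl-5 was raised more in smg-2 (interaction 1.31, SE 0.25, adjusted p = 0.00104), lips-15 was lowered less (0.74) and lips-10 passed the test of the egl-9 effect with NMD intact and not in smg-2 (-1.62, SE 0.34, adjusted p = 0.00294). The fourth lipase call, lipl-3, rests on counts near 0: it had 0.12 to 0.432 CPM in the double mutant and 0.289 to 0.875 CPM in smg-2, against 0 counts in all egl-9 libraries and 0.128 to 0.534 CPM in N2, and it was lost in 9 of the 20 fits without 1 library.

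C-type lectins, proteins with a lectin-like domain many of which respond to bacteria, gave 13 positive interactions (9.92%, against 1.69% of all genes) and 1 negative among 131 tested (median 0.16). Of the 13, 8 were lowered by the egl-9 mutation with NMD intact, among them clec-48, which had 41.2 to 53.5 CPM in the double mutant and 48.3 to 61.6 CPM in smg-2, against 19.5 to 27.3 CPM in egl-9 and 40.7 to 51.3 CPM in N2. Its interaction was 0.77, SE 0.15, adjusted p = 0.00115. The lectin clec-221 was raised in smg-2 and lowered with NMD intact, with 5.96 ± 0.713 CPM in the double mutant and 3.5 ± 0.348 CPM in smg-2, against 0.258 ± 0.198 CPM in egl-9 and 0.619 ± 0.263 CPM in N2. Its interaction was 1.88, SE 0.41, adjusted p = 0.00429. A different pattern was found for clec-70 (chromosome IV 3932708 to 3936307), which had 124, 88.6, 80.9, 83.7 and 72 CPM in the double mutant and 19.1, 8.91, 8.02, 9.24 and 10.6 CPM in smg-2. In egl-9, clec-70 had 12.4, 7.24, 6.03, 4.88 and 6.18 CPM, and in N2 it had 11.4, 8.24, 7.25, 6.36 and 6.93 CPM. It was high in the double mutant alone of these 4 genotypes, and smg-2, egl-9 and N2 overlapped, which gave an interaction of 3.14 (SE 0.44, adjusted p = 8.00e-06). The adjacent tested gene, the pseudogene WBGene00044642 (chromosome IV 3929650 to 3931654), had 84.4 ± 23.2 CPM in the double mutant and 11.4 ± 6.28 CPM in smg-2, against 0.261 ± 0.12 CPM in egl-9 and 1.21 ± 0.734 CPM in N2. Its interaction was 4.89 (SE 0.72, adjusted p = 1.77e-05). Whether reads of clec-70 and of this pseudogene were told apart in counting is not given in the sources used here. The negative lectin, clec-238, had 0.152 ± 0.0724 CPM in the double mutant and 1.23 ± 0.237 CPM in smg-2, against 0.475 ± 0.233 CPM in egl-9 and 0.527 ± 0.193 CPM in N2. The positive count of the list was 8 without N2 replicate C, without smg-2 replicate C and without all libraries lettered D.

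Detoxification genes moved in both directions. UDP-glucuronosyltransferases, which attach sugars to foreign and internal compounds, gave 5 positive (7.94%, against 1.69% of all genes) and 1 negative interactions (1.59%, against 1.96%) among 63 (median 0.06). Of these, ugt-18 had 17.7 ± 1.65 CPM in the double mutant and 0.653 ± 0.338 CPM in smg-2, against 2.36 ± 0.647 CPM in egl-9 and 0.475 ± 0.542 CPM in N2, but its interaction of 2.61 (SE 0.66, adjusted p = 0.0159) was 1.40 without N2 replicate A (adjusted p = 0.396). The interactions of ugt-24, ugt-62 and ugt-19 were 0.88, 0.81 and 0.95. Among 56 cytochrome P450 genes, 3 were positive (5.36%) and 2 negative (3.57%), with a median of 0.22. They were cyp-14A1 (1.69, SE 0.27, adjusted p = 7.92e-05) and cyp-33C8 (1.44, SE 0.28, adjusted p = 0.00132) among the positive ones, and cyp-36A1 and cyp-25A4 (-0.81). The egl-9 mutation had an effect on cyp-14A1 of 0.24 log2 units in smg-2, against -1.45 with NMD intact. None of the 41 glutathione S-transferases had a called interaction, with a range of -0.79 to 0.91.

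**Figure D3:**
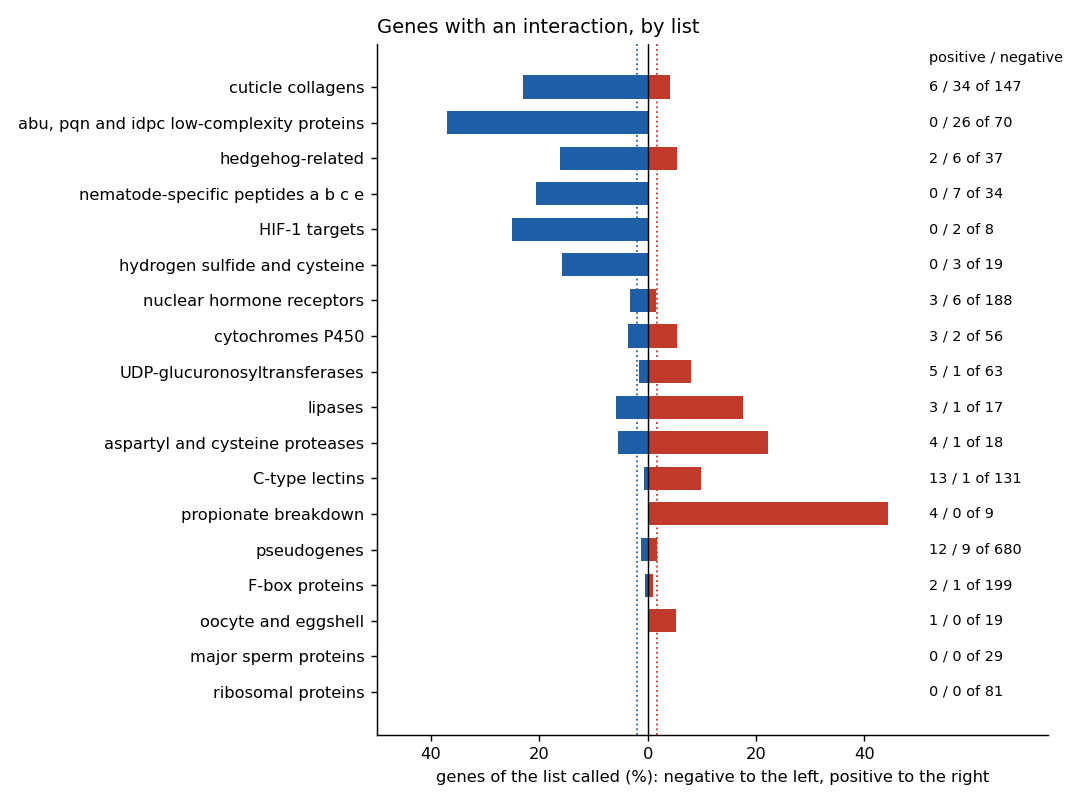
Share of the tested genes of 18 lists with a negative (left, blue) or positive (right, red) interaction. Dotted lines are the shares over all genes tested, 1.96% negative and 1.69% positive, and the numbers at the right are the positive and negative counts of the genes tested in each list.

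Polyamine synthesis genes split by enzyme. The S-adenosylmethionine decarboxylase gene smd-1, which supplies the aminopropyl donor for spermidine (chromosome I 14048094 to 14051010), had 926, 1012, 1066, 1070 and 1004 CPM in the double mutant and 1254, 1414, 1549, 1324 and 1442 CPM in smg-2. In egl-9, smd-1 had 184, 163, 159.6, 156 and 169 CPM, and in N2 it had 502, 519, 544, 580 and 594 CPM. All smg-2 and double mutant libraries lay above N2 and egl-9, and the egl-9 effect was -0.46 in smg-2 and -1.72 with NMD intact, an interaction of 1.26 (SE 0.13, adjusted p = 3.41e-09). On the linear scale that interaction was 0.504 CPM, which is near 0 beside these levels, so the drop in CPM was of like size on both sides. The ornithine decarboxylase gene odc-1, which makes putrescine, went the other way, with 636, 610, 785, 579 and 559 CPM in the double mutant and 1319, 1279, 2036, 1245 and 1664 CPM in smg-2. In egl-9, odc-1 had 22.8, 27, 22.6, 21.4 and 21.9 CPM, and in N2 it had 37.8, 20.9, 24.9, 16.9 and 21.2 CPM. It was raised by smg-2 loss on both sides, its egl-9 effect was -1.25 in smg-2 and -0.08 with NMD intact, and its interaction was -1.17 (SE 0.25, adjusted p = 0.00417). Spermidine synthase, spds-1, had an interaction of -0.72 (SE 0.14, adjusted p = 0.00104) with levels of 26.9 ± 2.45 CPM in the double mutant and 44.3 ± 3.66 CPM in smg-2, against 12.4 ± 0.927 CPM in egl-9 and 12.3 ± 2.4 CPM in N2. Of these, odc-1 and spds-1 were chosen after their values were seen, as the other called genes among the 12 of the list, whose median was 0.00.

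Cuticle collagens had the most calls of any list. Collagens form the worm's exoskeleton and are made in waves before each moult. Of 147 collagen genes tested, 34 were negative (23.1%, against 1.96% of all genes) and 6 positive (4.08%, against 1.69%), with a median interaction of -1.34. The egl-9 mutation raised 9 and lowered 13 collagens in smg-2 (median -0.30), and raised 62 and lowered 19 with NMD intact (median 0.98). Over all genes tested it raised 19% and lowered 21.9% in smg-2, and raised 11.9% and lowered 21.8% with NMD intact. Of the 34 negative collagens, 33 were raised by the egl-9 mutation with NMD intact and did not pass in smg-2. The gene col-137 (chromosome IV 16601480 to 16602776) had 131, 50.5, 82.8, 25.9 and 39.6 CPM in the double mutant and 55.7, 40.8, 177, 8.44 and 29.3 CPM in smg-2. In egl-9, col-137 had 83.5, 155, 102, 33 and 50.1 CPM, and in N2 it had 6.22, 3.8, 6.39, 0.835 and 3.53 CPM. N2 was the only one of the 4 genotypes with low levels, every other library lay above all N2 libraries, and the interaction was -4.25 (SE 0.95, adjusted p = 0.00533). The same pattern was found for col-156, with 8.96 to 51.7 CPM in the double mutant and 6.9 to 82.7 CPM in smg-2, against 16.5 to 93 CPM in egl-9 and 1.4 to 5.2 CPM in N2. Its interaction was -4.23 (SE 0.95, adjusted p = 0.0062). The interactions of col-88, col-162 and col-150 were -4.05, -3.95 and -1.94. Without smg-2 replicate C, col-137 had -3.35 and col-156 -3.51, while col-88 and col-162 no longer passed (adjusted p = 0.0897 and 0.0545). A positive member, col-98, had 841 to 1219 CPM in the double mutant and 408 to 652 CPM in smg-2, against 475 to 936 CPM in egl-9 and 592 to 784 CPM in N2. Its interaction was 1.00 (SE 0.22, adjusted p = 0.00429).

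In median level the negative collagens lay between the positive ones and those not called. The 34 negative collagens had a median level of 93.0 CPM in the double mutant and 97.1 CPM in smg-2, against 152 CPM in egl-9 and 18.8 CPM in N2. The 6 positive ones had medians of 1061 CPM in the double mutant and 603 CPM in smg-2, against 715 CPM in egl-9 and 818 CPM in N2. The summed CPM of all 147 collagens overlapped among the genotypes, from 46981 to 62661 in the double mutant and 49130 to 64258 in smg-2, against 45157 to 59985 in egl-9 and 47889 to 55702 in N2.

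Negative interactions were also frequent in some other lists, with 16.2%, 20.6% and 37.1% of the genes in the lists below, in their order, against 1.96% of all genes. Hedgehog-related genes, secreted proteins of the epidermis, gave 6 negative and 2 positive interactions among 37 (median -0.88), the smallest p being that of grd-6, with 5.89 to 29.7 CPM in the double mutant and 3.62 to 69.8 CPM in smg-2, against 5.25 to 43.1 CPM in egl-9 and 2 to 3.29 CPM in N2. Its interaction was -4.02, SE 0.94, adjusted p = 0.00891. The interaction of grl-27 was -4.53 (SE 1.07, adjusted p = 0.00981), and its adjusted p reached 0.0497 over the 20 fits without 1 library. Its levels were low, with means of 0.339 CPM in the double mutant, 1.93 in smg-2, 1.46 in egl-9 and 0.359 in N2. That of grd-14 was -2.62 and was lost without smg-2 replicate C (adjusted p = 0.11) and without egl-9 replicate B (adjusted p = 0.0551). The gene grd-3 was positive at 0.85 (SE 0.21, adjusted p = 0.0137). Nematode-specific peptides of the nspa to nspe families gave 7 negative calls among 34, all of them nspb genes. Of these, nspb-12 had an interaction of -2.88, nspb-3 -2.74, nspb-8 -2.96 and nspb-11 -3.04. A list of low-complexity proteins of the abu, pqn and idpc families, added after the values were seen, gave 26 negative calls and 0 positive among 70 (median -0.62). In it, pqn-57 had 10.9, 2.47, 2.75, 0.429 and 2.24 CPM in the double mutant and 9.35, 4.65, 14.7, 2.61 and 2.85 CPM in smg-2, against 7.11, 20.5, 17.1, 2.92 and 8.13 CPM in egl-9 and 0.444, 0, 2.64, 0 and 0 CPM in N2. Its interaction was -5.16 (SE 1.19, adjusted p = 0.0073), and -6.997 without N2 replicate C. The genes idpc-5 (-3.98) and abu-1 (-3.75) no longer passed without smg-2 replicate C. Among clone-named genes of chromosome V, large negative interactions were found for F48G7.5 (-4.51), K01D12.9 (-4.22) and C02E7.7 (-4.03). The call of C02E7.7 was lost in 1 of the 20 fits without 1 library (adjusted p = 0.0913). K01D12.9 was lowest in the double mutant, with means of 0.500 CPM there, 5.84 in smg-2, 3.58 in egl-9 and 2.28 in N2.

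The calls of these lists depended on single libraries. The negative count of collagens was 5 without smg-2 replicate C, 11 without egl-9 replicate B, 12 and 13 without replicates D and E of the double mutant, 16 without N2 replicate E and 17 without N2 replicate B, and it was 55 without all libraries lettered D. The low-complexity list had 3 negative calls without smg-2 replicate C, 13 without egl-9 replicate B, 15 without replicate D of the double mutant or N2 replicate E, and 16 without replicate E of the double mutant. The nspb calls fell to 0, and the hedgehog-related ones to 2, without smg-2 replicate C, and the hedgehog-related ones also fell to 2 without egl-9 replicate B. The nspb range over the 20 fits was 0 to 9. The positive collagens numbered 2 to 11 over these fits. The mean log2 CPM of the cuticle collagens was 5.37, 5.30, 4.96, 4.54 and 4.91 in replicates A to E of the double mutant and 5.33, 5.14, 5.93, 4.61 and 5.03 in smg-2, against 5.17, 5.81, 5.20, 4.94 and 5.15 in egl-9 and 4.46, 4.16, 4.36, 4.67 and 4.05 in N2. Replicate C was the highest smg-2 library, replicate B the highest egl-9 library and replicate D the lowest library of the double mutant, smg-2 and egl-9, but the highest of N2. Of all 9 genotypes N2 had the lowest mean level, 4.34 ± 0.25 (SD, n = 5), against 4.99 ± 0.30 in the next lowest, the smg-1 triple mutant.

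Genes of oocytes and eggshells, which rise as the germline of the young adult matures, moved together too. The oocyte and eggshell list had a mean log2 CPM of 8.96, 8.90, 8.89, 9.08 and 8.99 in replicates A to E of the double mutant and 8.61, 8.53, 7.69, 8.47 and 8.25 in smg-2, against 9.26, 9.18, 9.28, 9.28 and 9.34 in egl-9 and 8.95, 9.26, 8.98, 9.09 and 8.95 in N2. The smg-2 libraries were the lowest, and smg-2 replicate C, the library with the highest collagen level of that genotype, was the lowest of all 20. All 19 genes of the list were lower in smg-2 than in N2 (adjusted p under 0.05), 17 were higher in the double mutant than in smg-2, and 0 in egl-9 than in N2. The shares over all genes tested were 19.6%, 19% and 11.9%. All 19 interactions lay above 0, with a median of 0.41, against 0.09 over all genes. Only 1 of them passed the test, that of the eggshell proteoglycan gene cpg-2, 1.00 (SE 0.28, adjusted p = 0.0301). Major sperm proteins were lowered by the egl-9 mutation on both sides, 28 of 29 in smg-2 and 29 with NMD intact, against 21.9% and 21.8% of all genes. Of these proteins, 0 had a called interaction, but 28 of the 29 values lay above 0, with a median of 0.25, against 0.09 over all genes. The part of these oocyte levels in the cuticle interactions was not tested. Whole animals were sequenced, so fewer cells of a type and less RNA per cell cannot be told apart.

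**Figure D4:**
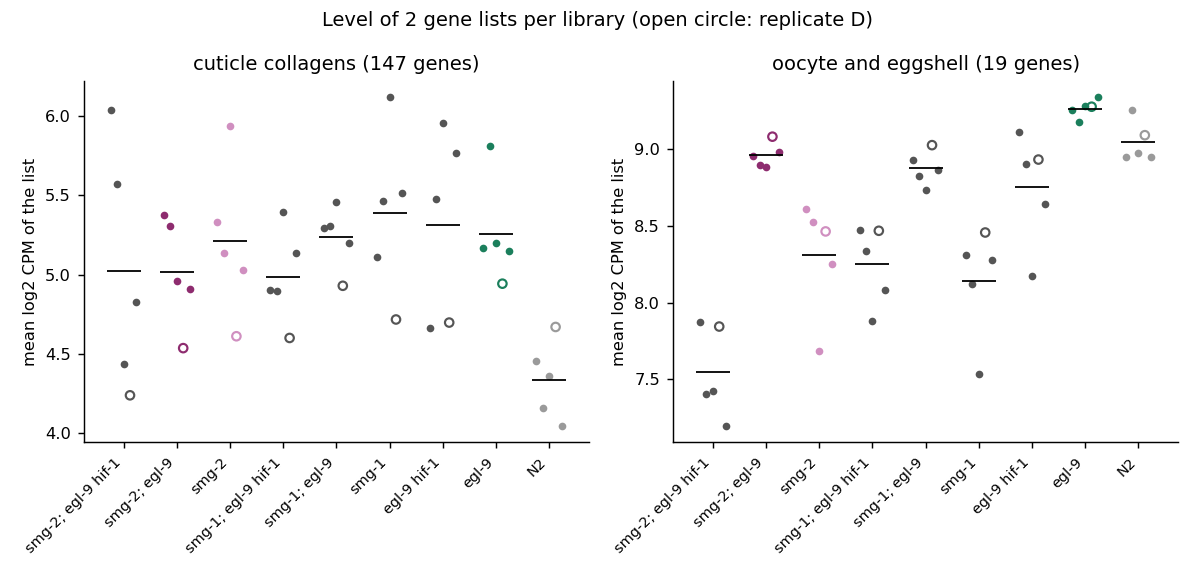
Mean log2 CPM of the cuticle collagens (left) and of the oocyte and eggshell genes (right) in each library of the 9 genotypes, with genotype means as lines and libraries lettered D as open circles. N2 lies lowest for the collagens with a mean of 4.34, and smg-2 lies below N2 and the double mutant for the oocyte genes.

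Of 680 pseudogenes, 12 were positive and 9 negative (median 0.37), shares close to those of all genes, and the positive count was 20 without N2 replicate D. Apart from WBGene00044642, the 3 with the smallest p were WBGene00014672 (interaction 3.63, adjusted p = 1.33e-04, and 4.51 without egl-9 replicate B), WBGene00021018 (1.77, SE 0.31, adjusted p = 2.42e-04) and WBGene00044515 (-2.15, SE 0.37, adjusted p = 1.85e-04). The pseudogene WBGene00044515 had 134 ± 13.8 CPM in the double mutant and 69.5 ± 5.4 CPM in smg-2, against 2.01 ± 0.536 CPM in egl-9 and 0.257 ± 0.148 CPM in N2, so its egl-9 effect was smaller in smg-2 on the log2 scale and larger by 62.8 CPM on the linear one. The 11 NMD factors, the 8 SR splicing factors and the 81 ribosomal protein genes had no called interaction. Their ranges were -0.23 to 0.48, -0.18 to 0.22 and -0.32 to 0.99 log2 units. The ubiquitin-ligase adaptors of the F-box family gave 2 positive and 1 negative calls among 199 (1.01% and 0.503%), and those of the MATH and BATH families 2 and 1 among 54 (3.7% and 1.85%). In the F-box family, fbxa-77 had 185 ± 24.4 CPM in the double mutant and 56 ± 12.5 CPM in smg-2, against 4.31 ± 0.781 CPM in egl-9 and 3.03 ± 0.524 CPM in N2 (interaction 1.21, SE 0.27, adjusted p = 0.00613), and fbxa-69 had an interaction of 1.45 (SE 0.32, adjusted p = 0.00506). The calls of fbxa-82 (-1.80), math-37 (1.88), math-41 (0.94) and math-45 (-1.79) were lost in 5 to 15 of the 20 fits without 1 library. Markers of intestine, muscle, neurons and hypodermis had 0 called interactions among 5, 11, 12 and 8 genes, and the hypodermis list had a median of -1.16.

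Some genes had an interaction in which a single one of the 4 genotypes stood apart. Thioredoxin-domain gene txdc-12.2 (chromosome X 2074450 to 2075944) had 0 counts in all 5 libraries of the double mutant and 31.5, 44.9, 38, 37.6 and 33.9 CPM in smg-2, against 27.2, 34.2, 24.1, 30.7 and 25.9 CPM in egl-9 and 37.8, 38.9, 45.5, 46.9 and 40.7 CPM in N2. Set against a floor of 3 counts per library, it was at least 218-fold lower in the double mutant than in smg-2. In strain MT27180, the triple mutant that adds hif-1(ia4) to these 2 mutations, it had 44.9 ± 7.08 CPM. The FMRFamide-like neuropeptide gene flp-12 (chromosome X 4591281 to 4592350) had 0 counts in the double mutant and in that triple mutant, and 12.9, 9.42, 15.8, 11.1 and 9.56 CPM in smg-2, against 11.5, 11.4, 14.2, 10.3 and 10.9 CPM in egl-9 and 12.2, 8.78, 12, 12.1 and 11.9 CPM in N2. It was at least 69.1-fold lower in the double mutant than in smg-2. The genes ztf-28 and F57A10.4 were low in smg-2 alone of the 4 genotypes: ztf-28, a zinc finger gene, had 21.2, 21, 22.1, 22.8 and 22.4 CPM in the double mutant and 5.08, 0.645, 0.361, 0.469 and 0.292 CPM in smg-2, against 22.9, 23, 27.9, 26.8 and 23.2 CPM in egl-9 and 19.2, 20.2, 18.6, 21.8 and 16.7 CPM in N2. Replicate A was the highest smg-2 library of ztf-28 and of F57A10.4. The interaction of ztf-28 was 3.52 (SE 0.52, adjusted p = 1.68e-05), and 5.27 without that library. That of F57A10.4 was 3.03 (SE 0.44, adjusted p = 1.43e-05), and 4.02 without it. Conversely, scrm-4, a scramblase gene, was high in smg-2 alone, with 4.1 to 6.76 CPM in the double mutant and 55.4 to 66.7 CPM in smg-2, against 2.77 to 3.74 CPM in egl-9 and 2.11 to 3.27 CPM in N2. Its interaction was -3.82, SE 0.41, adjusted p = 2.30e-08.

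Genes high in the double mutant alone of the 4 genotypes were C08F11.7, C45G9.10 and sulp-5, but this was not particular to that strain. In smg-1; egl-9, a strain described below, they had 32.6 ± 8.16, 6.92 ± 0.769 and 6.71 ± 1.27 CPM. In smg-1 they had 6.56 ± 3.13, 0.167 ± 0.176 and 2.18 ± 0.627 CPM. C08F11.7 (chromosome IV 13637275 to 13638666) had 16.1 to 38.3 CPM in the double mutant and 0.146 to 0.323 CPM in smg-2, against 0.437 to 1.04 CPM in egl-9 and 0.257 to 0.725 CPM in N2. Its interaction was 6.16 (SE 0.64, adjusted p = 8.81e-09). Its neighbour, the pseudogene WBGene00014672, was also highest there, with 2.38 to 4.6 CPM in the double mutant and 0.433 to 0.871 CPM in smg-2, against 0 to 0.299 CPM in egl-9 and 0.0952 to 0.467 CPM in N2. C45G9.10 had 6.92 to 9.88 CPM in the double mutant and 0 to 0.402 CPM in smg-2, against 0 to 0.299 CPM in egl-9 and 0 to 0.385 CPM in N2, but its interaction of 4.49 (SE 1.14, adjusted p = 0.0176) was 3.27 without N2 replicate D (adjusted p = 0.331), and its other 3 groups are close to 0 counts. The sulfate permease homologue sulp-5 had 8.02 ± 1.37 CPM in the double mutant and 2.25 ± 0.56 CPM in smg-2, against 1.44 ± 0.48 CPM in egl-9 and 2.02 ± 0.345 CPM in N2. Its interaction was 2.32 (SE 0.30, adjusted p = 1.97e-06). A pair of nearby genes of chromosome V, vmo-1 and Y38H6C.23, were lowered by the egl-9 mutation less in smg-2. Y38H6C.23 had 1.8 to 3.68 CPM in the double mutant and 5.46 to 6.7 CPM in smg-2, against 0.205 to 0.65 CPM in egl-9 and 4.37 to 5.47 CPM in N2. Its interaction was 2.37, SE 0.29, adjusted p = 4.98e-07. The gene vmo-1 had 3.41 to 9.5 CPM in the double mutant and 7.26 to 12.3 CPM in smg-2, against 0 to 0.0597 CPM in egl-9, where no library had more than 3 counts, and 0.193 to 0.989 CPM in N2. In egl-9 it was at least 2.89-fold lower than in N2, and on the linear scale its interaction was -3.63 CPM, while its call was lost without egl-9 replicate B or C. ZK218.5, with 0 counts in egl-9, was at least 26.2-fold lower there than in N2 and had 0 to 0.902 CPM in the double mutant and 0.253 to 5.42 CPM in smg-2. The small gene F08G2.5 had 5.24 ± 1.78 CPM in the double mutant and 3.94 ± 1.54 CPM in smg-2, against 0.448 ± 0.257 CPM in egl-9 and 1.94 ± 0.855 CPM in N2. Its interaction was 2.60.

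The same egl-9 effect was measured in a background without SMG-1, the kinase that phosphorylates SMG-2, in the strains smg-1(n6597); egl-9(sa307) (MT26971) and smg-1(n6597) (MT26974). The egl-9 effect in smg-2 minus that in smg-1 passed the test in 136 genes (0.847%), 59 in the positive (0.368%) and 77 in the negative direction (0.48%), and this comparison holds no N2 or egl-9 library. The interaction with smg-1, which shares the N2 and egl-9 libraries with that of smg-2, was -1.14 for cyp-36A1, -1.06 for phy-2, -0.99 for mpst-3, 1.79 for ilys-5, 1.39 for smd-1, 3.05 for clec-70, -4.70 for col-137 and 2.03 for asp-8. The direct difference was -0.15 (SE 0.16, adjusted p = 0.735) for cyp-36A1, 0.09 (SE 0.43, adjusted p = 0.957) for clec-70 and 0.45 (SE 0.87, adjusted p = 0.875) for col-137. A difference passed for scb-1 (-0.85, SE 0.15, adjusted p = 7.15e-04), cyp-33C8 (1.83, SE 0.28, adjusted p = 4.71e-05), ugt-62 (1.09, SE 0.19, adjusted p = 3.92e-04) and ugt-19 (1.44, SE 0.23, adjusted p = 1.67e-04). It also passed for gpd-3, a glyceraldehyde-3-phosphate dehydrogenase gene (chromosome X 3112091 to 3113341) chosen after its values were seen. In the smg-1 double mutant gpd-3 had 832 ± 135 CPM and in smg-1 408 ± 60.2 CPM. In the 4 genotypes of the smg-2 interaction gpd-3 had 298 ± 18.4 CPM in the double mutant and 367 ± 38.2 CPM in smg-2, against 808 ± 115 CPM in egl-9 and 398 ± 57.6 CPM in N2. Its interaction was -1.32 (SE 0.17, adjusted p = 1.24e-06) with smg-2 and 0.01 with smg-1, and the difference was -1.33 (SE 0.17, adjusted p = 1.10e-06).

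Several genes in which a single one of the 4 genotypes stood apart also differed between the 2 NMD backgrounds. The difference between the smg-2 and smg-1 backgrounds was 4.51 (SE 0.47, adjusted p = 6.80e-09) for C08F11.7, -4.96 (SE 0.38, adjusted p = 1.80e-12) for scrm-4, 2.41 (SE 0.52, adjusted p = 0.00784) for ztf-28, 2.08 (SE 0.44, adjusted p = 0.00669) for F57A10.4 and 1.68 (SE 0.30, adjusted p = 6.45e-04) for WBGene00021018. The scramblase gene scrm-4 was high in the smg-1 double mutant (46.7 ± 6.19 CPM) and lower in smg-1 (15.5 ± 7.09 CPM), the reverse of the smg-2 pair. Of these genes, C08F11.7, scrm-4, ztf-28 and F57A10.4 did not mark single strains among all 9 genotypes. C08F11.7, high in the smg-1 double mutant too, had 37.1 ± 4.78 CPM in the smg-1 triple mutant. In the smg-2 triple mutant ztf-28 had 0.629 ± 0.316 CPM, F57A10.4 0.413 ± 0.384 CPM and scrm-4 34.6 ± 13.2 CPM. By contrast, WBGene00021018 was highest in the double mutant, with 93.4 ± 18.9 CPM, against 31.2 ± 5.60 CPM in smg-2. It had 14.5 ± 4.07 CPM in the smg-1 double mutant and 16.8 ± 5.01 CPM in the smg-2 triple mutant. The gene txdc-12.2, with 0 counts in the double mutant, had 35.1 ± 3.47 CPM in the smg-1 double mutant. Its difference between the backgrounds was -12.25 (SE 0.35, adjusted p = 1.24e-25). On chromosome II, T09A5.5 and the nearby klp-3, a kinesin gene chosen after its values were seen, were high in smg-2: T09A5.5 had 32, 35.3, 38.5, 30.7 and 35.1 CPM in the double mutant and 103, 112, 121, 115 and 108 CPM in smg-2. In egl-9, T09A5.5 had 37.8, 40.3, 42.1, 42.6 and 37.7 CPM, and in N2 it had 52.6, 38.4, 39.6, 53.1 and 36.8 CPM. The interaction of T09A5.5 was -1.56 (SE 0.16, adjusted p = 8.81e-09), and in the smg-2 triple mutant it had 104 ± 15 CPM. Transcripts of klp-3 had 19.6 ± 3.51 CPM in the double mutant and 42.6 ± 1.82 CPM in smg-2, against 20.8 ± 3.94 CPM in egl-9 and 20.6 ± 1.79 CPM in N2. Its interaction was -1.14 (SE 0.17, adjusted p = 2.39e-05).

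The share of called genes differed among the chromosomes, which is given as a description with no test. On the X chromosome, 68 of 2231 tested genes had a negative interaction (3.05%), on chromosome V 90 of 3207 (2.81%), and on the other autosomes 1.2% to 1.69%. Positive shares were 1.48% on X and 0.7% to 2.25% on the autosomes. The difference between the smg-2 and smg-1 backgrounds passed for 47 genes on X (2.11%), against 0.35% to 0.915% on each autosome. In windows of 1 Mb, X from 15 to 16 Mb held 13 negative interactions (11.3% of its tested genes), V from 9 to 10 Mb held 15 (8.11%) and X from 3 to 4 Mb held 9 (6.92%), and these windows were picked after their values were seen. Of the 21 negative genes between 14 and 16 Mb of X, 19 were higher in smg-2 than in N2 (adjusted p under 0.05), a share near that of all negative genes, of which 277 of 314 were (88.2%). Of the 21, 10 also differed between the smg-2 and smg-1 backgrounds, against 35 of all 314 negative genes and 0.847% of all genes tested.

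**Figure D5:**
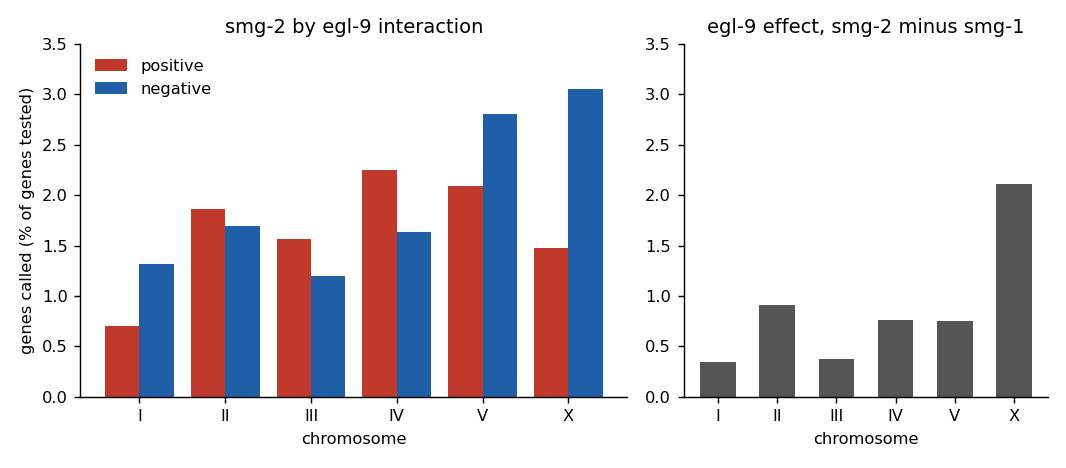
Share of the tested genes of each chromosome with a positive or negative smg-2 by egl-9 interaction (left), and share for which the egl-9 effect differed between the smg-2 and smg-1 backgrounds (right). The X chromosome has the highest share on the right, 2.11%, and the highest negative share on the left, 3.05%.

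The genes of that part of X shown here were chosen after their values were seen. The deubiquitinase gene usp-33 (chromosome X 15591368 to 15595387) had 12.1, 14.3, 12.4, 15.3 and 15.3 CPM in the double mutant and 36.6, 58.6, 45.6, 115 and 43.3 CPM in smg-2. In egl-9, usp-33 had 15.7, 11.9, 14.3, 16 and 14.2 CPM, and in N2 it had 13.1, 16.1, 13.2, 12.6 and 11.7 CPM. It was high in smg-2 alone, with replicate D the highest, and the double mutant, egl-9 and N2 overlapped, an interaction of -2.21 (SE 0.28, adjusted p = 8.63e-07). The nearby gene dyn-1, the worm dynamin that pinches off endocytic vesicles, had 37.5 to 49.7 CPM in the double mutant and 77 to 113 CPM in smg-2, against 39.2 to 50.8 CPM in egl-9 and 36.8 to 44 CPM in N2 (interaction -1.26, SE 0.18, adjusted p = 1.68e-05), and gas-1, a subunit of mitochondrial complex I, had 111 ± 10 CPM in the double mutant and 212 ± 44.1 CPM in smg-2, against 121 ± 15.2 CPM in egl-9 and 134 ± 13.8 CPM in N2. Its interaction was -0.79, SE 0.17, adjusted p = 0.00471. The transcription factor gene lin-15A had 12.6 to 17.2 CPM in the double mutant and 31.1 to 60.9 CPM in smg-2, against 14.1 to 19 CPM in egl-9 and 10.3 to 16.2 CPM in N2. Its interaction was -2.03 (SE 0.32, adjusted p = 4.32e-05). The pattern of high levels in smg-2 and near-N2 levels in the double mutant also held for tbc-1, a Rab GTPase-activating protein gene, with an interaction of -1.78 (SE 0.29, adjusted p = 9.23e-05). Transcripts of pkhm-2 were likewise highest in smg-2, with 31.1 to 38.4 CPM in the double mutant and 75.7 to 118 CPM in smg-2, against 23 to 32.6 CPM in egl-9 and 20.3 to 25.7 CPM in N2. Its interaction was -1.80 (SE 0.25, adjusted p = 9.22e-06). In the smg-2 triple mutant usp-33 had 78.1 ± 12.9 CPM, dyn-1 97.3 ± 14.7 CPM and tbc-1 68.1 ± 10.3 CPM. In the smg-1 double mutant usp-33 had 12.4 ± 2.5 CPM, and in smg-1 10.5 ± 1.49 CPM. The difference between the smg-2 and smg-1 backgrounds was -2.34 (SE 0.28, adjusted p = 2.84e-07) for usp-33 and -3.38 (SE 0.29, adjusted p = 4.18e-11) for tbc-1.

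With hif-1 mutated as well, the contrast was taken again, as the effect of egl-9 hif-1 in the smg-2 background minus that with NMD intact, in the triple mutant and in strain CB6088, which carries the same egl-9 and hif-1 alleles. It shares the smg-2 and N2 libraries with the interaction above, so the values are only set side by side, and their differences were not tested. It was 0.28 (SE 0.16, adjusted p = 0.265) for cyp-36A1, -0.07 (SE 0.18, adjusted p = 0.839) for phy-2, 0.05 (SE 0.15, adjusted p = 0.882) for mpst-3 and 0.02 (SE 0.42, adjusted p = 0.984) for far-3, none of which passed. Of other genes described above, ilys-5 had -0.34 (SE 0.17, adjusted p = 0.183) and cpr-4 -0.36 (SE 0.21, adjusted p = 0.269), which did not pass. Values that passed were 2.35 (SE 0.24, adjusted p = 8.77e-10) for asp-8, 1.36 (SE 0.19, adjusted p = 3.02e-06) for asp-14, 0.49 (SE 0.16, adjusted p = 0.0316) for acdh-1, -1.48 (SE 0.16, adjusted p = 2.83e-09) for scb-1 and -0.97 (SE 0.24, adjusted p = 0.0051) for C36C5.12. Negative values that passed were also found, -4.23 (SE 0.95, adjusted p = 0.00186) for col-137, -3.24 (SE 0.95, adjusted p = 0.0177) for col-156 and -3.78 (SE 0.93, adjusted p = 0.00484) for grd-6. The lectin clec-70 had 2.41 (SE 0.46, adjusted p = 3.21e-04) and smd-1 1.44 (SE 0.13, adjusted p = 1.74e-11).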

How the data were processed

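Messenger RNA of 45 libraries was measured as one series, and the interaction uses 20 of them. The authors deposited a table of raw counts per gene and a table of log2(TPM + 1) values. The submitters' processing notes name WBcel235, FastQC, STAR 2.7.9a, RSEM 1.3.0 and DESeq2, with no role stated, and whether counting used the strand is not given in the sources used here. From the deposited counts, differences were fitted with edgeR 4.0.16 (R 4.3.3): TMM scaling, filterByExpr, which kept 16053 of 46926 genes, and quasi-likelihood tests over 9 genotype means with 36 residual degrees of freedom and Benjamini-Hochberg adjustment over all genes tested (common biological coefficient of variation 0.198). Genes left out held 0.0372% of counts. The 4 genotypes' libraries held 11812796 to 33169699 counts. Log2 CPM values used a prior count of 2. The floor of 3 counts covers counting error only. All 16053 tested identifiers matched the Ensembl release 115 annotation. The members and gene lists were chosen with earlier results of these data known. Named genes were the 12 in each direction with the largest interactions at a mean of at least 5 CPM in 1 genotype, the 6 in each direction with the smallest p, up to 4 called genes of each list with 3 or more calls, the mutated genes and the 8 HIF-1 targets. Others are said to be chosen after their values were seen. In simulated counts with 200 of 15738 genes changed, the interaction fit recovered 94 of 102 changed 4-fold and 70 of 98 changed 2-fold, with 12 false calls. Each simulated gene was drawn independently, and unchanged genes had the same mean in all genotypes. Variation shared by many genes of a library, as in smg-2 replicate C, was not simulated. These counts therefore do not give the rate of false calls in the real data. Alternatives used DESeq2 1.42.0, limma 3.58.1 on the deposited log2 values, other filters and scalings, a replicate block and single libraries left out.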

Additional observations from a re-analysis of the deposited data

Results flagged for a closer look

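Single libraries that lay far from the other 4 of their genotype, by Dixon's test at its 95% critical value, were found in 35 of 404 sets of 5 libraries examined, where chance gives about 1 in 20. In the double mutant these were WBGene00021018 in replicate A (60.7 CPM), WBGene00044642 in replicate A (125 CPM), mpst-3 in replicate A (199 CPM), pqn-57 in replicate A (10.9 CPM), scb-1 in replicate A (14.2 CPM), scrm-4 in replicate A (4.1 CPM), vmo-1 in replicate A (9.5 CPM), far-3 in replicate B (229 CPM), klp-3 in replicate B (25.7 CPM) and ugt-18 in replicate C (20.6 CPM). In smg-2 they were WBGene00044642 in replicate A (22.6 CPM), clec-70 in replicate A (19.1 CPM), ztf-28 in replicate A (5.08 CPM), F48G7.5 in replicate C (9.61 CPM), col-137 in replicate C (177 CPM), col-150 in replicate C (71.3 CPM), col-162 in replicate C (377 CPM), far-3 in replicate C (29.5 CPM), grd-14 in replicate C (102 CPM), nspb-11 in replicate C (14.2 CPM) and usp-33 in replicate D (115 CPM). The collagens col-137, col-150 and col-162, the hedgehog-related gene grd-14, F48G7.5 and nspb-11 were thus high in the same smg-2 library, replicate C. In egl-9 they were vmo-1 in replicate A (0.0597 CPM), WBGene00014672 in replicate B (0.299 CPM), asp-8 in replicate B (0.747 CPM) and odc-1 in replicate B (27 CPM). In N2 they were ugt-18 in replicate A (1.43 CPM), flp-12 in replicate B (8.78 CPM), pqn-57 in replicate C (2.64 CPM), C45G9.10 in replicate D (0.385 CPM), K01D12.9 in replicate D (5.65 CPM), cpr-4 in replicate D (516 CPM), cyp-33C8 in replicate D (6.68 CPM), ugt-24 in replicate D (2.63 CPM), far-3 in replicate E (3.47 CPM) and idpc-5 in replicate E (0.467 CPM).

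The effect of the egl-9 mutation differed between the smg-2 background and intact NMD, by the test of the interaction, in 271 genes in the positive and 314 in the negative direction. It differed between the smg-2 and smg-1 backgrounds in 59 genes in the positive and 77 in the negative direction.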

How the results depend on the processing

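The interaction count of 585 was 324 to 661 over the 20 fits that left out 1 library, the negative count of 314 was 140 to 385 and that of at least 2-fold (253) 102 to 315. Negative collagens (34) ranged over 5 to 44 and positive lectins (13) over 8 to 13 in these fits. The lowest values came without smg-2 replicate C, shared for the lectins with N2 replicate C. Without all libraries lettered D, an alternative chosen after seeing the data, there were 55 negative collagens and 8 positive lectins. With DESeq2's Wald test 530 genes were negative. With genes of at least 5 CPM only, which tests 10242 genes, 159 were positive, 55 positive and 168 negative at 2-fold, 4298 genes changed with the egl-9 mutation in smg-2 and 3443 with NMD intact, and 5 lectins were positive. Requiring 2-fold left 384 genes. With the replicate letter as a block (replicate block) 889 genes were called, 424 positive. Deviations correlated with r over 0.1 in 16 of 30 pairs of libraries with the same letter (median 0.13, range -0.34 to 0.39, against a median of -0.015 between letters), in all pairs lettered C but not in all pairs of any other letter, and 11 of 20 libraries correlated best with their own letter. These values are a hint at pairing from the data, not from the labels, and not every pair correlated, so the block was kept as an alternative. Under the block no named gene changed its call. On the linear CPM scale the sign reversed for vmo-1 (-3.63), cbs-1 (12.8), WBGene00044515 (62.8) and math-45 (1.81), and on the deposited log2(TPM + 1) values the gene math-45 reversed (0.0887, adjusted p = 0.871 by limma). For the values that moved, apart from the smaller number of genes or libraries, the cause was not tested. Genes with few counts per library (lipl-3, vmo-1, ZK218.5, C45G9.10) are limited by depth.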
